A study of Arabidopsis thaliana with 6 samples.

Results

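The genes described here are 47 listed paralogs of cytosolic ribosomal proteins in Arabidopsis thaliana. They belong to 21 sets, each set holding the listed genes that encode the same ribosomal protein, with 9 sets (21 genes) of the small subunit and 12 sets (26 genes) of the large subunit. Members were the rows of the authors' deposited gene table whose gene identifier equals a listed one, and 46 of the 47 genes had a row of their own in a table of 33233 rows, of which 18050 were tested. RPL10C (AT1G66580) had no row of its own and lay on a joint locus with the neighbouring AT1G66590. The study dissected roots of 8-day-old Col-0 wild-type seedlings, grown in continuous light on vertical plates, into a 0.5 mm tip section with root cap and division zone (zone I, 3 libraries) and a 1.5 mm section with elongation and root hair zone (zone II, 3 libraries). All 6 libraries share genotype, age and growth conditions, and were made from whole sections, so each mixes many cell types.

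The deposited comparison sets a condition called experiment against a condition called control. No label ties these words to a zone, so every direction below is experiment relative to control and is given to neither zone. The levels of each gene in the conditions were not used here because their columns could not be matched to samples. Which paralog of a set supplied most transcript, and each paralog's share in percent, are therefore not given. What the table does give is the change of the ratio between paralogs of a set, which equals the difference of their log2 fold changes and does not depend on library scaling.

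The cytosolic ribosome of plants carries largely the same protein types as that of other eukaryotes, but nearly every type is encoded by a small family of genes. Ribosomal protein genes are known for high transcript levels in dividing and growing tissue such as the root meristem, and for promoters that hold short motifs called site II and telo box. Loss of a single paralog in Arabidopsis often gives a pointed leaf or a slow growth phenotype, as known for RPS18A, RPS13A, RPL24B (STV1), PGY2 and the RPL5 genes.

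All 46 members with their own row were lower in the experiment condition at a q under 0.01 in the authors' deposited gene table, the threshold used throughout. Over all 18050 tested rows, 21.2% were called lower and 22.3% higher. The 46 members were also below q thresholds of 0.05 and 0.001, at which 28% and 15.2% of tested rows were lower and 27.8% and 17.6% higher. PGY2 and AT5G35530 each had a second, less precise row, of -1.53 (q = 0.000177) and -1.89 (q = 0.444) by the authors' Cuffdiff test, so 47 of 48 member rows were called. The median log2 fold change of the 46 members was -1.83 (quartiles -1.95 and -1.71, SD over genes 0.347), a 3.56-fold lower level, against a median of -0.08 over all tested rows with a finite fold. The fall ranged from -1.49 for RPS10B to -3.32 for RPL16A. Every member had the smallest p the table holds, 5e-05 (q = 0.000177 from the authors' Cuffdiff test), which 5093 tested rows shared, so p does not rank them. The 21 small subunit members had a median log2 fold change of -1.81 and the 25 large subunit members one of -1.88, a gap smaller than the spread within either subunit. For 42 of the 46 members the error of the log2 fold change lay between 0.30 and 0.40. This error, here called the implied SE, is the deposited log2 fold change divided by the deposited test statistic; it had a median of 0.338 and reached 0.517 for RPSAb.

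**Figure D1:**
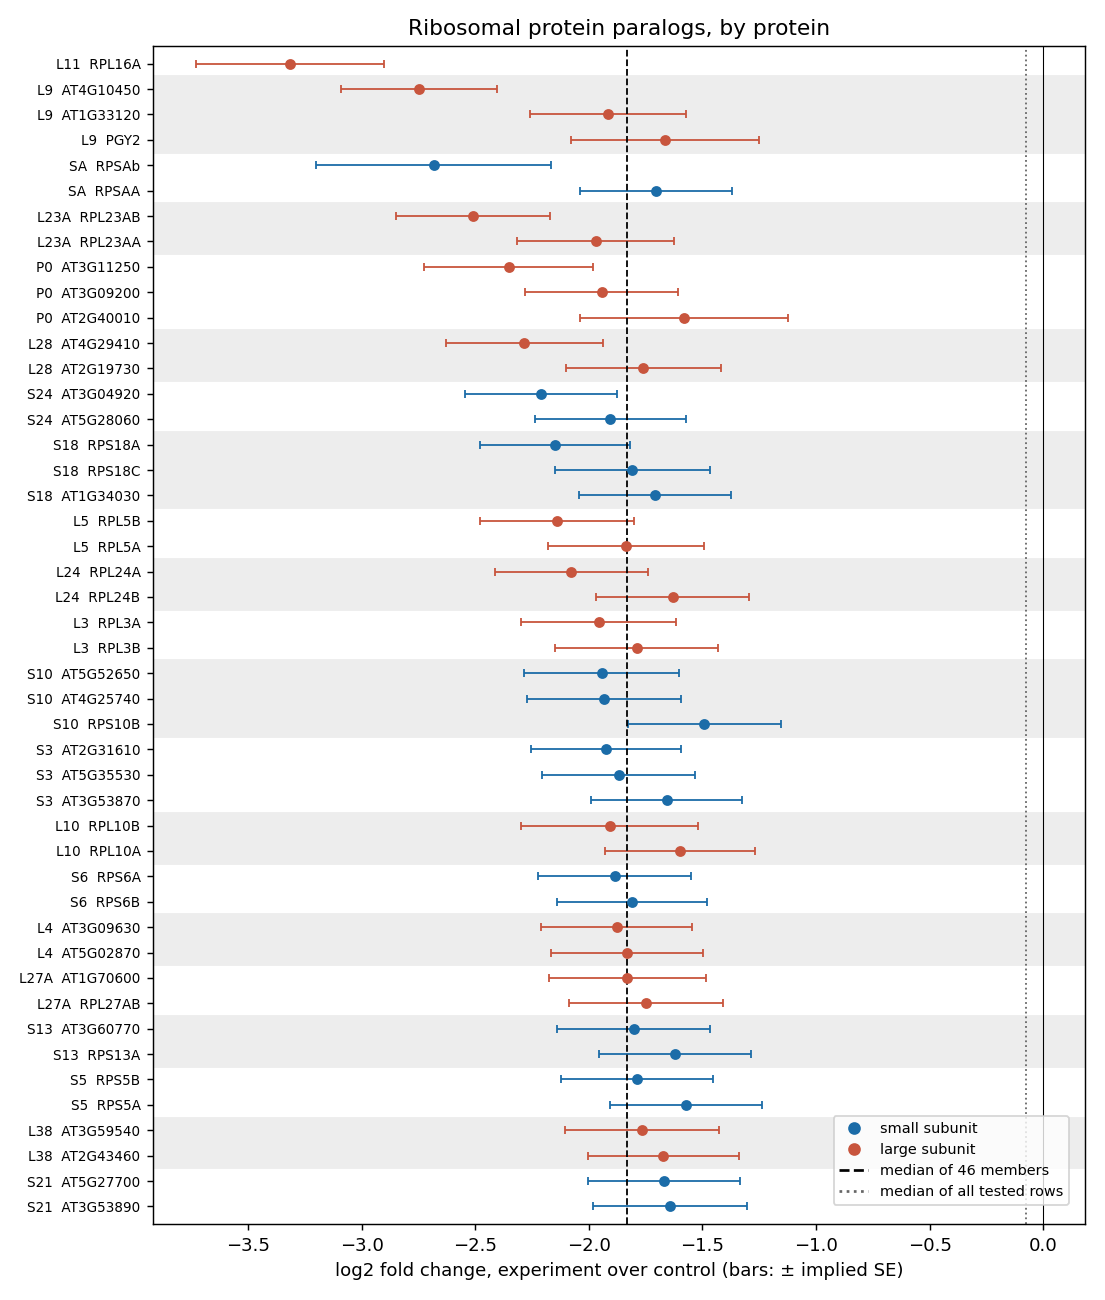
Log2 fold change (experiment over control) of each of the 46 members, grouped by set, with bars of 1 implied SE; color marks the subunit, the dashed line the median of the members (-1.83) and the dotted line the median of all tested rows (-0.08). All points and bars lie left of the dotted line, and RPL16A at -3.32, AT4G10450 at -2.75 and RPSAb at -2.68 lie farthest left.

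Markers of root cell types and of shoot tissue moved in the same comparison. All 5 markers of dividing cells (CYCB1;1, CYCB1;3, KNOLLE, CDC20.1 and TPX2) were called lower, with log2 fold changes from -4.98 to -2.86 in the authors' deposited gene table. Of 4 root hair markers, 3 were called higher and the other, EXPA18, had 8.97 with q = 0.310 from the authors' Cuffdiff test. Of 4 root cap markers, FEZ, BRN1 and BRN2 had no finite fold, with a deposited test statistic of minus infinity, and were called lower, and SMB had -7.82 with q = 0.310 from the same test. Of 4 shoot markers, 3 (RBCS1A, RCA and LHCB3) were called higher, and LHCB1.1 had 4.74 with q = 0.119 from the authors' Cuffdiff test. The part of these cell types in the fall of the ribosomal protein genes was not tested. In bulk sections, fewer cells of a type and less RNA per cell cannot be told apart.

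Promoters are shown for the 3 members with the largest falls, for PGY2 and RPSAA, the paralogs that the L9 and SA genes are compared with, and for the L24 pair, which differs in motifs, because the family is known for shared promoter elements. They are the 250 bases upstream of the annotated gene start in the RefSeq TAIR10.1 genome, 5′ to 3′ on the gene's strand. Capitals mark site II (TGGGCC or TGGGCT) and the telo box (AAACCCT), each searched on both strands. The windows are chr2:17791442-17791691 (plus strand), chr4:6464559-6464808 (minus), chr1:12022975-12023224 (plus), chr3:1311130-1311379 (minus), chr1:27244932-27245181 (minus), chr2:15352014-15352263 (minus) and chr3:19662026-19662275 (minus), in this order:
RPL16A: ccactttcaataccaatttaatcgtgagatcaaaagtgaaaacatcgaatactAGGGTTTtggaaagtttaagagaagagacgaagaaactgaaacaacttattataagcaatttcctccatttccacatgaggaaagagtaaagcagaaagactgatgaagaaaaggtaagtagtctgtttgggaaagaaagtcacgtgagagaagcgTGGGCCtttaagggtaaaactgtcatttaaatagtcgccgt
AT4G10450: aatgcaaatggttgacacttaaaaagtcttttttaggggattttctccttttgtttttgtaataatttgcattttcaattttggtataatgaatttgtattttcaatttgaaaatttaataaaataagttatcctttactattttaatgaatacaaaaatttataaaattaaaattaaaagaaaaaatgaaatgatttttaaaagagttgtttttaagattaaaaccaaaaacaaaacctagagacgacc
PGY2: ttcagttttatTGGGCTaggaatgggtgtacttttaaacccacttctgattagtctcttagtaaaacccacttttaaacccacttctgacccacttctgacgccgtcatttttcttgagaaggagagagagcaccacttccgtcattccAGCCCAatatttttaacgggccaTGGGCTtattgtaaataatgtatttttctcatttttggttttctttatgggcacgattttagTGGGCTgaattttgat
RPSAb: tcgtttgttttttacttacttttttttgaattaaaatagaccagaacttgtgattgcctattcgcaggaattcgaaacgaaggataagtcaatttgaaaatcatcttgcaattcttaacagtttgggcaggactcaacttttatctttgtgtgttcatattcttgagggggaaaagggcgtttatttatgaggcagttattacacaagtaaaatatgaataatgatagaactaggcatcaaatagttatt
RPSAA: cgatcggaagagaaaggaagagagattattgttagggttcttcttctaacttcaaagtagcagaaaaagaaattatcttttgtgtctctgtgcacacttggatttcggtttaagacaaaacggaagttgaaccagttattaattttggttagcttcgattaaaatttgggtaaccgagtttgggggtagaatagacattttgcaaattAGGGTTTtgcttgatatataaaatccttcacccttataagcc
RPL24A: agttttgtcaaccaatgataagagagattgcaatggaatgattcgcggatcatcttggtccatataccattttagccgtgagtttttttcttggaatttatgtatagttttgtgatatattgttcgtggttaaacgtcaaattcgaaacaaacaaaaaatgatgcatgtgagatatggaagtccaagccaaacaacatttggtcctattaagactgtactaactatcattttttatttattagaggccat
RPL24B: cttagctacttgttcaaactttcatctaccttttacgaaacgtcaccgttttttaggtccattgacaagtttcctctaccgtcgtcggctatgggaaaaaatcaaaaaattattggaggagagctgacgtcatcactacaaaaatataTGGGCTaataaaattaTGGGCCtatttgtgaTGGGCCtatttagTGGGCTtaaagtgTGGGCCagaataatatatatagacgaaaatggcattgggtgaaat

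Site II was found in 31 of 47 member promoters (66.0%), against 70.8% of 171 other ribosomal protein genes and 19.2% of 27437 protein-coding genes. At least 2 matches were found in 51.1%, 51.5% and 11.95% of these groups. The telo box was found in 25.5% of member promoters, 25.7% of the others and 7.33% of all, and 27.7% of member promoters held neither motif, against 75.6% of all. Of 75 site II matches, 74 lay within 150 bases of the gene start, at a median of 56 bases upstream (position -56). The 13 telo boxes had a median position of -30 but a lower quartile of -190, and 8 of them lay within 150 bases. The printed windows differ in these letters. AT4G10450, RPSAb and RPL24A held neither motif, and PGY2 held 4 matches of site II and RPL24B 5. RPSAA held 1 telo box, and RPL16A held 1 of each. Windows were set by the annotated gene start, which can lie away from the assembled locus. The RPSAb locus ended at 1310887 and its window began at 1311130, and for RPL24A these were 15351900 and 15352014. The loci of RPSAA and RPL24B reached their windows. A motif between locus and window would be missed. Members with site II had a median log2 fold change of -1.82 (n = 30) and those without one of -1.89 (n = 16), and members with and without a telo box had -1.73 (n = 12) and -1.88 (n = 34) in the authors' deposited gene table. Sets not printed went both ways in site II matches. For example, the gene that fell more held more in L4 (4 against 0) and L5 (4 against 2). It held fewer in S5 (0 against 2), L27A (0 against 4) and S6 (1 against 3). In each of these sets the difference in fold was within its implied SE, so which gene fell more is not resolved. Both L23A genes held 0.

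**Figure D2:**
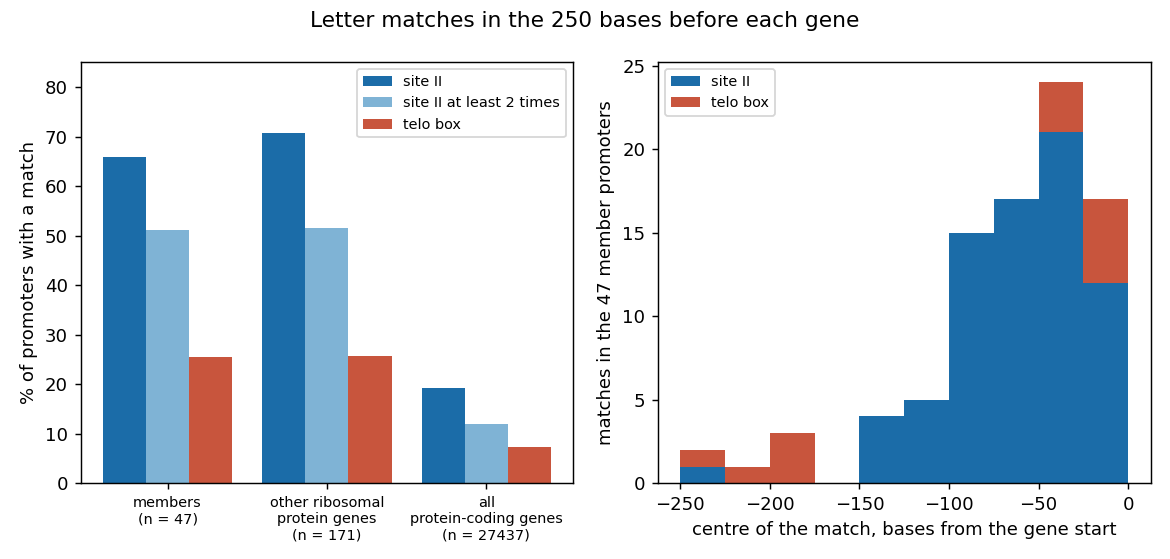
Left, share of promoters (percent) with site II, with at least 2 matches of it, or with a telo box in the 250 bases before the gene, for members, other ribosomal protein genes and all protein-coding genes; right, stacked counts of matches in the 47 member promoters by distance from the gene start in bases. Members (66.0% with site II) lie near the other ribosomal protein genes (70.8%) and above all genes (19.2%), and site II matches gather close to the gene start.

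Among small subunit proteins near the path of the mRNA, S3 lies at the mRNA entry, and its 3 genes had log2 fold changes of -1.92 (AT2G31610), -1.87 (AT5G35530) and -1.66 (AT3G53870) in the authors' deposited gene table. S5 lies in the head of the subunit, and RPS5B had -1.79 against -1.57 for RPS5A, the paralog whose promoter is widely used to drive expression in dividing cells. For S10, also at the entry side, AT5G52650 and AT4G25740 had -1.94 and -1.93, while RPS10B had -1.49, the smallest fall of all members. The ratio of AT5G52650 to RPS10B thus changed by -0.45 ± 0.479 on the log2 scale (difference ± implied SE, with no p because covariance of the paralogs is not known), which is within its error.

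The remaining small subunit sets include S6, the target of S6 kinase in the TOR pathway, and SA, the homolog of the animal laminin receptor protein. RPS6A and RPS6B had log2 fold changes of -1.89 and -1.81, and the S21 genes AT5G27700 and AT3G53890 had -1.67 and -1.64 in the authors' deposited gene table. RPS18A, the gene mutated in the pointed first leaf mutant, had -2.15, against -1.81 for RPS18C and -1.71 for AT1G34030. The S13 genes AT3G60770 and RPS13A had -1.80 and -1.62, and the S24 genes AT3G04920 and AT5G28060 had -2.21 and -1.91. In the SA pair, RPSAb fell 6.42-fold (log2 -2.68 ± 0.517) and RPSAA 3.26-fold (-1.70 ± 0.334). Their log2 ratio changed by -0.98 ± 0.615, a 1.97-fold change of the ratio. The annotated gene RPSAb overlaps AT3G04780 on the same strand, and the annotated gene RPSAA overlaps AT1G72360 on the other strand. Reads of these libraries, which do not mark strand, could be shared between such genes. Overlaps here and below are between annotated genes, and overlap of the assembled loci was not checked.

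In the large subunit, L3 and L4 reach toward the catalytic centre and the exit tunnel. In the authors' deposited gene table the log2 fold changes were -1.96 for RPL3A and -1.79 for RPL3B, and -1.88 for AT3G09630 and -1.83 for AT5G02870 of L4. RPL23AB and RPL23AA encode L23A at the tunnel exit and had -2.51 ± 0.339 and -1.97 ± 0.345. L10, added late in subunit assembly and known in Arabidopsis as a partner of the immune kinase NIK1 through RPL10A, had -1.91 for RPL10B and -1.60 for RPL10A. The joint locus of RPL10C and AT1G66590 had -1.78 (q = 0.000177 from the authors' Cuffdiff test), a value that covers both genes.

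L5 and L11 bind the smallest ribosomal RNA of the large subunit together. RPL5B had a log2 fold change of -2.14 and RPL5A one of -1.84 in the authors' deposited gene table. RPL16A (AT2G42740, chromosome 2, 17791729 to 17793082 on TAIR10) encodes L11 and fell 9.97-fold (log2 -3.32 ± 0.414), the largest fall among the members. It was the only listed gene of its set, so 3 further L11 genes were added for comparison. RPL16A fell more than each of them, by -0.97 ± 0.532 against AT5G45775, -1.19 ± 0.540 against AT3G58700 and -1.45 ± 0.532 against AT4G18730 on the log2 scale. The 3 further genes had -2.35, -2.13 and -1.87 in the authors' deposited gene table. RPL16A was singled out after its value was seen, and no p is given for its difference from them.

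The stalk base protein P0 recruits elongation factors together with the small acidic stalk proteins. Its 3 genes spread widely in the authors' deposited gene table, with log2 fold changes of -2.35 ± 0.372 for AT3G11250, -1.94 ± 0.335 for AT3G09200 and -1.58 ± 0.458 for AT2G40010. The ratio of the first to the last changed 1.71-fold (-0.77 ± 0.590). The annotated gene AT2G40010 overlaps the noncoding gene AT2G40008 on the other strand, and AT3G09200 overlaps AT3G09210 on the same strand. No P0 pair is therefore left without doubtful loci. In the authors' deposited isoform table the same contrast was -0.09 ± 1.37, a difference near 0 with a wide error. It was taken with the AT2G40010 isoform of largest statistic (-2.08). The other tested isoform of AT2G40010 had -0.61, farther from the -2.17 of AT3G11250 there, and neither was called. For L9, AT4G10450 (chromosome 4, 6462950 to 6464574) had -2.75 ± 0.343, AT1G33120 had -1.92 ± 0.343 and PGY2 had -1.66 ± 0.414 in the authors' deposited gene table. The ratio of AT4G10450 to PGY2 changed 2.12-fold (-1.09 ± 0.538), the largest change within a listed set and the only one of 30 pairs beyond 2 implied SEs. In the isoform table this change was -1.45 ± 0.522, taken with the PGY2 isoform of largest statistic (-0.88). The other tested PGY2 isoforms had -1.47 and -1.88, nearer to the -2.33 of AT4G10450 there, and were not called. Of the promoters printed above, that of AT4G10450 holds neither motif and that of PGY2 holds 4 matches of site II. A part of the motifs in this ratio was not tested. The annotated genes PGY2 and AT1G33120 each overlap another annotated gene on the other strand. PGY2 also had a second row (-1.53), and reads of PGY2 and AT1G33120 can be shared, as described below.

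The remaining large subunit sets were L24, L27A, L28 and L38. RPL24A had a log2 fold change of -2.08 and RPL24B, known in Arabidopsis for reinitiation of translation on auxin response factor mRNAs, had -1.63 in the authors' deposited gene table. AT4G29410 and AT2G19730, which encode L28, a protein that budding yeast lacks, had -2.28 and -1.76. The annotated gene AT4G29410 overlaps AT4G29400 on the other strand and snoRNA genes on the same strand. AT1G70600 and RPL27AB (L27A) had -1.83 and -1.75, and the L38 genes AT3G59540 and AT2G43460 had -1.77 and -1.67.

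Over the 20 sets with at least a pair of listed genes, 5 (L9, SA, P0, L23A and L28) held a pair whose log2 ratio changed by 0.5 or more, and in 8 the largest change was under 0.25. Of the 30 pairs, 6 exceeded 1 implied SE, an error that is wide beside the authors' p, as described under processing. The median absolute difference was 0.304 within sets (30 pairs) and 0.223 between genes of different sets (1005 pairs), given as a description because pairs share genes. The smallest extreme differences were -0.03 for S21, -0.05 for L4, -0.08 for S6 and -0.08 for L27A. Without the 13 members that have 2 rows or overlap another annotated gene, 1 of 12 sets, L23A, remained at 0.5 or more, and L9, SA, P0 and L28 had no pair left. The L23A change was -0.54 ± 0.484, little beyond its error. In the isoform table it was -0.55 ± 0.568, within its error.

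**Figure D3:**
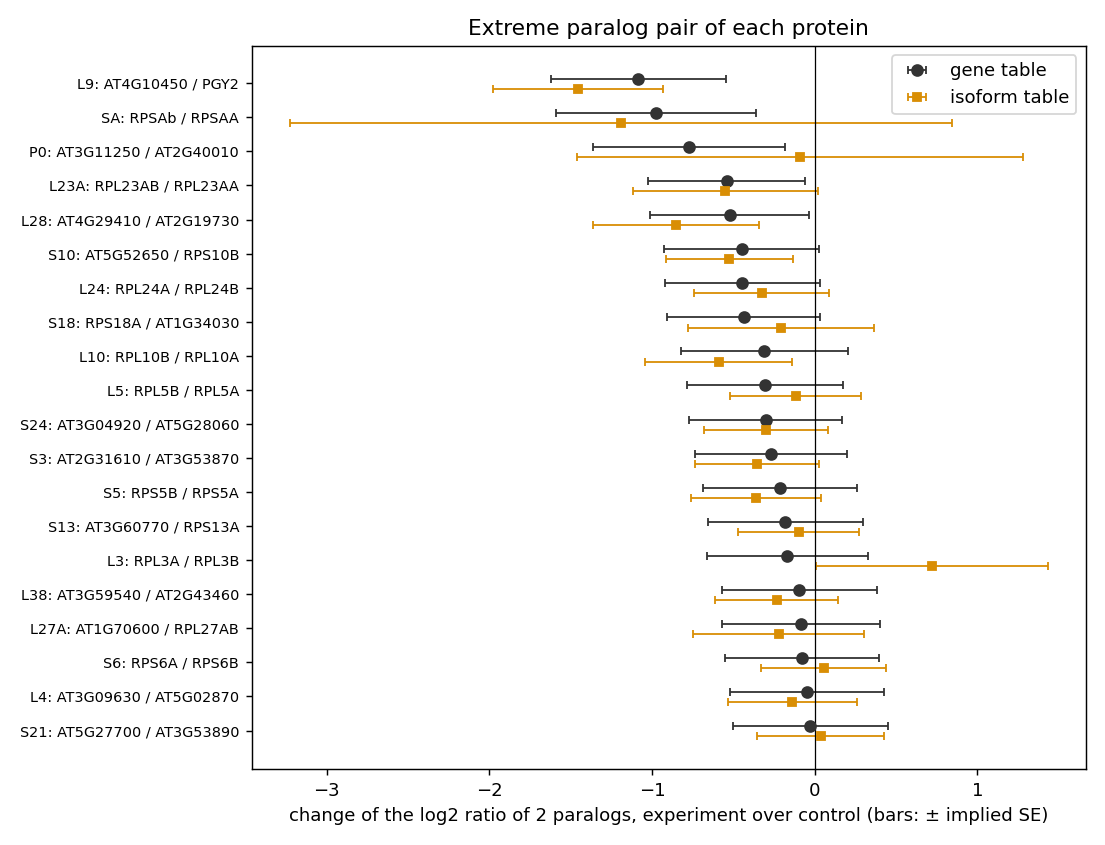
Change of the log2 ratio between the paralogs that differ most in each of 20 sets (first named minus second named gene), in the gene table (circles) and the isoform table (squares), with bars of 1 implied SE. In the gene table L9 at -1.09 and SA at -0.98 lie farthest from 0, and the bars of 5 sets stay clear of 0.

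**Figure D4:**
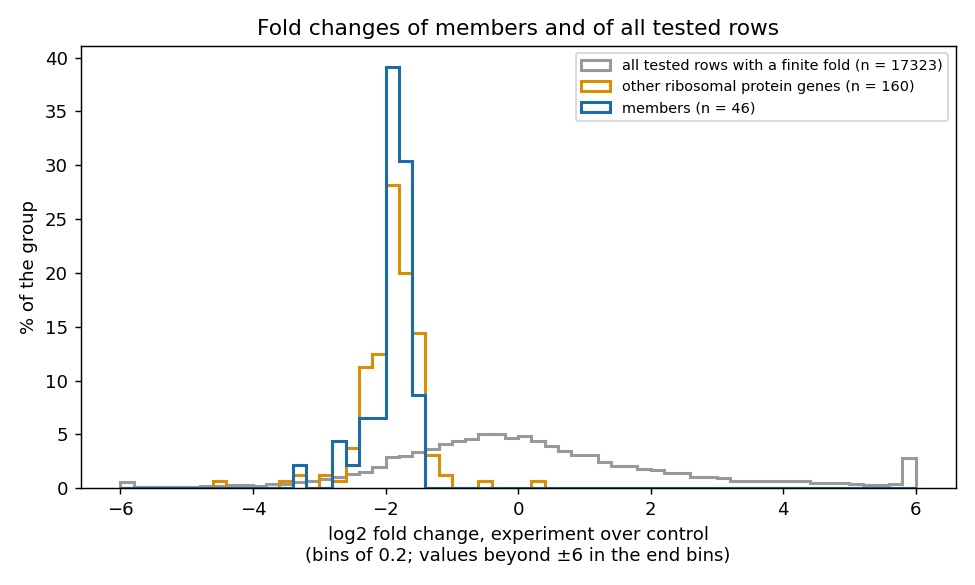
Percent of each group by log2 fold change (experiment over control, bins of 0.2, values beyond ±6 in the end bins) for all tested rows with a finite fold, the 46 members and the other ribosomal protein genes. Both ribosomal groups form a narrow peak near their medians of -1.83 and -1.87, while all tested rows spread on both sides of -0.08.

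Of 172 further cytosolic ribosomal protein genes, 160 were tested in the authors' deposited gene table, of which 155 were called lower, 0 higher and 5 not called by the authors' Cuffdiff test, with a median log2 fold change of -1.87. The 5 genes not called were AT2G16360 (0.28), AT3G08520 (-1.20), AT3G04230 (-0.48), AT5G09500 (-3.57) and AT5G40040 (-4.42). Grouped by protein, these genes formed 56 sets with a tested pair. Of these, 32 held a log2 ratio change of 0.5 or more, and the median absolute difference over 156 pairs was 0.370. The L11 genes were counted here without RPL16A, with a largest change of -0.48. This list was written from knowledge of the family and trimmed by the reference's descriptions. The trimming left out 10 genes written down as ribosomal protein genes, because the searched words were not found in their descriptions. All 10 were called lower, among them AT4G30800 of S11 (-3.55), a larger fall than that of RPL16A.

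In the authors' deposited isoform table the 47 genes had 99 isoforms, up to 12 for a gene (RPL3A), and 19 genes had 1 isoform. Of 87 tested isoforms, 52 were called lower and 0 higher, against 6.9% called lower and 9.93% called higher over all 32807 tested isoforms. Among tested isoforms 2 had a fold above 0, of RPL3A (9.11) and RPS6B (0.18), and neither was called. At least 1 isoform was called lower for 45 of the 47 genes. Taking for each gene the isoform with the largest statistic, the median log2 fold change was -1.43. For genes with 1 isoform, whose gene and isoform rows should cover the same transcript, the isoform fold minus the gene fold had a median of 0.124 over 5034 genes and of 0.492 over 17 members (0.178 to 0.598). AT2G40010 (-2.08, q = 0.061 from the authors' Cuffdiff test) and RPSAb (-2.49, q = 0.433) were the members without a called isoform. The SA contrast was -1.19 ± 2.03 there, an error larger than the change. Of the 30 pairs, 6 changed sign between the tables, and 5 of these had an isoform-table difference within its own implied SE. The contrast of L3 turned from -0.17 to 0.72 ± 0.712, that of AT3G09200 against AT2G40010 (P0) from -0.36 to 0.62 ± 1.35, and that of RPS18A against RPS18C from -0.34 to 0.003 ± 0.582. The small contrasts of S6 and S21 and that of AT5G52650 against AT4G25740 (S10) crossed 0 to 0.05, 0.04 and 0.09. The sign of the L3 contrast depends on the isoform taken: called isoforms had -2.22 and -1.19 for RPL3B, and -1.50 and -1.87 for RPL3A. That of the P0 contrast does too: AT3G09200 had -1.46, and the isoforms of AT2G40010, neither called, had -2.08 and -0.61. For the 5 pairs within their implied SE, the isoform table does not resolve which gene fell more.

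**Figure D5:**
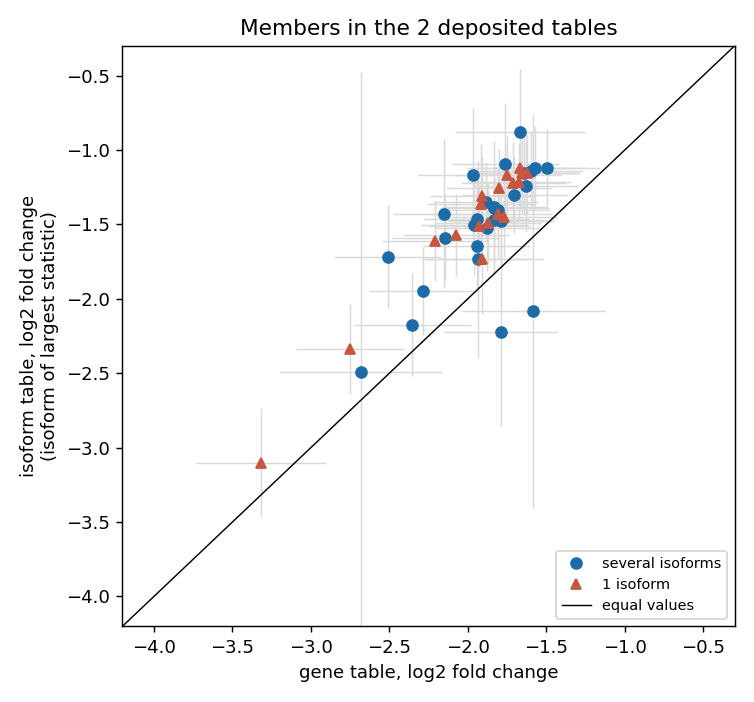
Log2 fold change of each member in the isoform table (isoform of largest statistic) against that in the gene table, with bars of 1 implied SE; the line marks equal values, and the widest bar (RPSAb) runs past the axis. Most points lie above the line, nearer to 0 in the isoform table, and RPL16A lies lowest on both axes.

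How far reads can be told apart between paralogs was read from the reference sequences. Over the 30 pairs, protein identity ran from 59.4% to 100% (median 94.3%), with identical proteins in 5 pairs, and coding sequence identity from 68.4% to 99.1% (median 85.2%). AT1G33120 and PGY2 were the closest, with a shared run of 458 bases, and 70.9% of 150-base windows, the length of a read, occur in both. It was the only pair with a shared run of 150 bases or more, and how the counting divided such reads is not given in the sources used here. AT4G10450 shared no run longer than 44 bases with PGY2. Across the 30 pairs, Spearman's rho between coding identity and the absolute difference was -0.41, a description only, since pairs share genes.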

How the data were processed

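Per the labels' protocols, cDNA was made from 5 ng of total RNA with a SMART-Seq kit and amplified by PCR, and tagmented libraries were sequenced as paired ends of 150 bases without strand marking. Alignment, assembly and testing used TopHat, Cufflinks and Cuffdiff on TAIR10, per the submitters' processing notes; their version was not given in the sources used here. The authors' deposited tables hold, per the file headers, a log2 fold change, a Cuffdiff test statistic (a score), a p-value and a q-value for each gene and isoform. The 4 columns of condition values in the 2 tables carry no sample's label and were not used here, so depth per library and its precision are unknown, and planned results on levels and shares of paralogs were not run.

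The implied SE is the fold divided by the statistic. It ignores covariance and is wide beside the authors' p: 752 rows with a statistic of about 2 had a median p of 0.00165. Replicates are separate samples by their labels, and nothing says they came from separate plants. Members, lists and thresholds were chosen with earlier results of these data known. All members are named, and every gene singled out was chosen after its values were seen. Coordinates count from 1. Sequences are from RefSeq TAIR10.1; the locus lay within the reference gene for 33 of 46 members. Python 3.11.15, pandas 2.3.3 and Biopython 1.88 were used. The pair differences and the motif search were tested on simulated data, the pairs with a smaller error per gene than the implied SE. Other steps were not tested in this way.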

Additional observations from a re-analysis of the deposited data

How the results depend on the processing

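All 46 members with their own row were also called lower at a q under 0.05 and under 0.001, as were the 33 without doubtful loci, and 45 of 47 genes in the isoform table. The median log2 fold change of members was -1.43 in the isoform table, -1.54 there relative to all tested isoforms, -1.76 relative to the median over all tested genes and -1.84 without doubtful loci. The number of sets with a paralog log2 ratio change of at least 0.5 was 5; it was 11 at 0.3, 1 at 1, 8 in the isoform table, 6 with the further L11 genes, and 1 of 12 sets without the 13 doubtful members. These alternatives other than the q thresholds and the scaling to all genes were chosen after seeing the data, and the cause of the differences was not tested. No paired analysis was possible because the tables hold no value per library, and for the same reason no replicate was left out. Pseudocounts, minimum values, sums over isoforms, length weighting and the most abundant isoform were not run, since they need the condition values.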
